A study of Mus musculus with 20 samples.

Results

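The growth hormone and IGF axis was followed through 10 genes of the mouse liver: the receptors Ghr and Prlr, the transcription factors Stat5a and Stat5b, the feedback inhibitors Socs2 and Cish, the hormone Igf1 and the serum partners Igfals, Igfbp1 and Igfbp2. The genes were taken by symbol from tables of 37681 genes, and all 10 were present and among the 15578 genes tested. The liver RNA came from male C57/B6J mice aged 12 weeks, collected 4 hours after IL-1β at 20 µg/kg (5 mice, ILB) or saline (5 mice, called untreated, UNT). IL-1β is an inflammatory cytokine. Each mouse's RNA was sequenced on an Illumina HiSeq and on an Ion Torrent Proton, and each platform was aligned with GSNAP, STAR and STAR + Bowtie2, which gave 6 count tables for a comparison of the platforms. The replicates were separate mice, and the same mice stand behind all 6 tables.

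Growth hormone from the pituitary acts on the liver through its receptor Ghr, a cytokine receptor that works through the kinase JAK2 and the transcription factors STAT5A and STAT5B. STAT5 turns on Igf1, whose product enters the blood and promotes growth, and Igfals, whose product keeps circulating IGF-1 in a stable complex with a binding protein. STAT5 also turns on Socs2 and Cish, whose products dampen the receptor's signal. Igfbp1 and Igfbp2 encode carriers that bind IGF-1 outside that complex, and hepatic Igfbp1 is known to be held down by insulin.

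The Illumina STAR table is the main one below. Its libraries held 10568530 to 10655860 counts in treated and 10887640 to 11046256 in untreated mice, and the Ion Torrent STAR libraries held 12199528 to 12723326. Levels are counts scaled to a library total of 1000000 after TMM scaling (CPM), and effects are log2 fold changes of IL-1β minus untreated from edgeR, called at an adjusted p below 0.05 over all genes tested. The Illumina and Ion Torrent libraries of UNT_9584 were less alike than those of the other mice: their deviations from the group means correlated at 0.246, against 0.534 to 0.707 for the others. The study also found the lowest correlations of counts between platforms in this sample. It reported a shift in the sample's Ion Torrent read lengths against those of the other samples. Which of its libraries departs from the rest was not tested, and results are also given without this mouse. As this was bulk tissue, fewer cells of a type and less RNA per cell cannot be told apart.

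In the treated livers 1 of the 10 genes rose (Igfbp1) and 5 fell (Ghr, Prlr, Stat5b, Igf1 and Igfals), while Stat5a, Socs2, Cish and Igfbp2 did not pass the test. Of all genes tested 45.7% were called, 22.7% as higher and 22.9% as lower with IL-1β, so 6 of 10 was not far from that background. The treatment groups did not overlap for 3 of the 10 genes (Ghr, Stat5b and Igfals), against 33.9% of all genes. Only Igfals and Igfbp1 were called with an absolute log2 fold change above 1, which 16.9% of all genes were. Over the 6 tables, the same direction was called throughout for 5 of the 10 genes, Igfbp1 as higher and Ghr, Prlr, Stat5b and Igfals as lower, against 34.9% of all genes. The larger changes of Igfals and Igfbp1 held in all 6 as well, which was so for 12.3% of all genes. By table, 6 of the 10 genes were called in Illumina GSNAP (47.5% of all genes), 6 in Illumina STAR + Bowtie2 (47.4%), 7 in Ion Torrent GSNAP (46.4%), 6 in Ion Torrent STAR (42.1%) and 7 in Ion Torrent STAR + Bowtie2 (46.7%). Without UNT_9584 6 genes were called, with Socs2 in and Igf1 out, and in the Ion Torrent STAR table without it 5 were called.

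**Figure D1:**
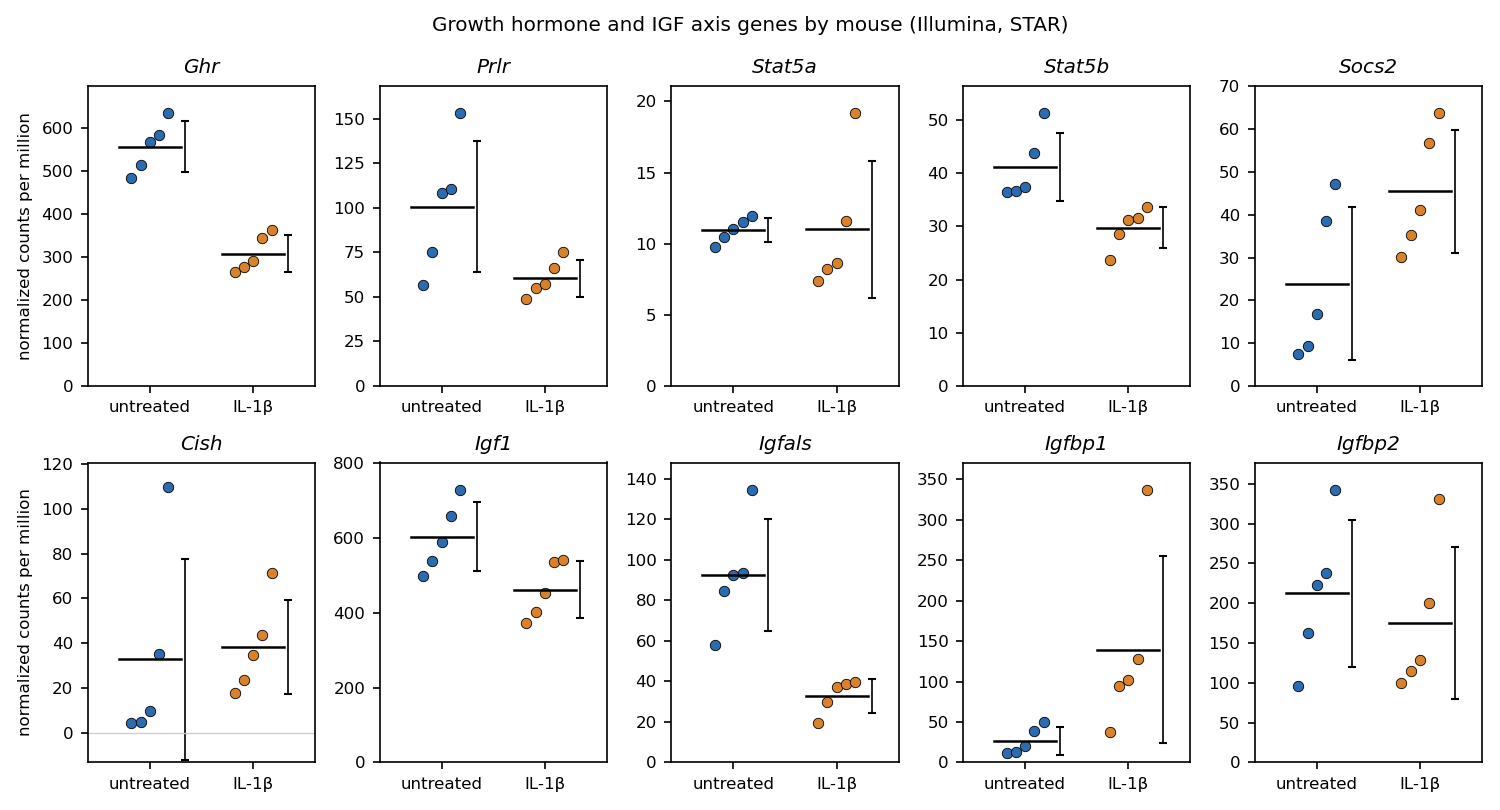
Normalized CPM (y axis, linear) of the 10 genes in the Illumina STAR table, with 1 point per mouse, 5 untreated (blue) and 5 treated with IL-1β (orange); lines are means and bars are 1 SD. Ghr, Stat5b and Igfals show no overlap between the groups, while UNT_9580 alone carries the high Cish value of 110 and ILB_9579 the high Igfbp1 value of 337.

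Ghr (ENSMUSG00000055737, chr15:3267760-3533492 on NCBIM37, minus strand) encodes the growth hormone receptor. It stood at 583, 567, 483, 514 and 634 CPM in untreated mice UNT_9574, UNT_9575, UNT_9576, UNT_9580 and UNT_9584. In treated mice ILB_9577, ILB_9578, ILB_9579, ILB_9582 and ILB_9583 it stood at 290, 265, 361, 344 and 277 CPM. Every treated mouse was below every untreated one. The means were 307 ± 42.6 (SD, n = 5) with IL-1β and 556 ± 59.1 (SD, n = 5) without, a log2 fold change of -0.85 (SE 0.114, adjusted p = 2.31e-05), or 1.81-fold lower. In the other tables the log2 fold change lay between -0.86 and -0.70, without overlap in any of the 6.

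Prlr (ENSMUSG00000005268, chr15:10106993-10303504, plus strand) lies on the same chromosome and encodes the prolactin receptor, which also signals through STAT5. The untreated mice, in the order given above, had 75.2, 110, 108, 56.8 and 153 CPM. The treated mice had 48.9, 66.0, 75.3, 57.3 and 54.9 CPM. The groups overlapped: UNT_9580 was as low as the treated mice, and UNT_9574 at 75.2 lay just below ILB_9579 at 75.3. UNT_9584 was the highest. On the log2 scale the fold change was -0.74 (SE 0.211, adjusted p = 0.00982) and -0.54 (adjusted p = 0.0286) without UNT_9584. Under a rank-sum test Prlr did not pass (adjusted p = 0.081). Its exons share 155 bases with Agxt2 on the same strand.

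Stat5b (ENSMUSG00000020919, chr11:100642045-100712038, minus strand) encodes the STAT5 form that carries most growth hormone signalling in the liver. It had 43.8, 37.5, 36.7, 51.3 and 36.4 CPM in the untreated mice. It had 28.5, 23.7, 31.7, 33.7 and 31.2 CPM in the treated mice. All treated values lay under all untreated ones, with a gap narrower than for Ghr. The fall was -0.47 on the log2 scale (SE 0.125, adjusted p = 0.00645), and it reached -0.75 (adjusted p = 6.1e-05) in the Ion Torrent STAR table, where the groups did not overlap either.

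Stat5a (ENSMUSG00000004043, chr11:100720665-100746483, plus strand), its close relative, lies 8.63 kb from Stat5b on the opposite strand. It had 11.5, 11.9, 9.79, 10.5 and 11.1 CPM in the untreated mice and 8.25, 7.39, 19.2, 11.6 and 8.66 CPM in the treated mice. Mouse ILB_9579 was the highest, and 3 of the treated mice lay below every untreated one. The log2 difference was 0.0079 (SE 0.219, 95% interval -0.46 to 0.48, adjusted p = 1), and it was -0.29 (adjusted p = 0.151) without ILB_9579. The effect thus had no settled sign: it was below 0 in the 3 Ion Torrent tables (-0.14 to -0.13) and without TMM scaling (-0.12). Of the 100-base windows of its transcripts 6.31% also occur in Stat5b, and its exons overlap those of Stat3 on the other strand by 72 bases.

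Cish (ENSMUSG00000032578, chr9:107198357-107205115, plus strand) encodes a feedback inhibitor that STAT5 induces. Its promoter is shown because it carries more than 1 copy of the STAT element TTCNNNGAA, where N is any base and which reads the same on both strands. The stretch comes from RefSeq on GRCm38.p6 (chr9:107296459-107296678, plus strand) and covers 200 bases before and 20 bases after the transcript start, with the matches in capitals:
Cish: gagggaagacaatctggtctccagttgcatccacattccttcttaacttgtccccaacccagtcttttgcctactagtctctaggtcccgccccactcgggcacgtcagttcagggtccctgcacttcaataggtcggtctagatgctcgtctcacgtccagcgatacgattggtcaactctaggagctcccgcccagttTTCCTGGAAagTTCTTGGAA
The element occurs at least once in 8.30% and at least 2 times in 0.457% of 32851 RefSeq promoter windows of 300 bases. A match describes the letters only and says nothing about binding.

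Cish varied more between untreated mice than between treatments. The untreated mice had 4.33, 5.02, 35.1, 110 and 9.94 CPM. The treated mice had 71.1, 34.7, 18.0, 23.4 and 43.7 CPM. The highest untreated mouse, UNT_9580, was 25.3-fold above the lowest, UNT_9574, and both extremes of the 10 mice were untreated. The SD of the log2 level was 1.98 among untreated and 0.77 among treated mice, while the 7810 genes averaging 100 counts or more had a median SD of 0.199 and 0.167. The fitted log2 fold change was 0.22 (SE 0.688, 95% interval -1.25 to 1.69, adjusted p = 0.849). Without UNT_9580 it was 1.49 (adjusted p = 0.0392), and without UNT_9584 it was -0.0080 (adjusted p = 1), so the value rested on which mice were counted. With limma-voom it was 1.16 (adjusted p = 0.279). The exons of Cish overlap those of the antisense transcripts Gm17040 and Gm17041 by 261 and 479 bases.

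Socs2 (ENSMUSG00000020027, chr10:94847996-94879814, minus strand) encodes the inhibitor whose loss in mice leads to excess growth. It had 9.41, 7.49, 16.9, 47.2 and 38.6 CPM in the untreated mice. It had 63.7, 35.4, 56.9, 30.1 and 41.1 CPM in the treated mice. In the untreated group 3 mice (UNT_9574, UNT_9575 and UNT_9576) lay below all treated ones, and mice UNT_9580 and UNT_9584 lay among them. The log2 fold change was 0.93 (SE 0.409, 95% interval 0.058 to 1.80), which did not pass (adjusted p = 0.0774). It passed without UNT_9580 (1.34, adjusted p = 0.0127), without UNT_9584 (1.17, adjusted p = 0.0416) and in the 3 Ion Torrent tables (1.07 to 1.13, with adjusted p = 0.00715 for STAR). With no filter beyond 1 read it passed narrowly, at the same 0.93 (adjusted p = 0.0496). Of its 100-base windows 3.41% also occur in Gm9847.

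The spread of Cish and Socs2 was seen on both platforms. In the Ion Torrent STAR table the untreated mice had 5.95, 4.45, 42.3, 114 and 9.96 CPM of Cish. They had 9.79, 8.61, 16.9, 38.8 and 27.4 CPM of Socs2. Mouse UNT_9580 was again the highest untreated mouse for both genes. As the libraries of a mouse come from the same RNA, this bears on library preparation and sequencing only. Over the 10 genes, the highest treated mouse was the same on both platforms for 7 and the lowest treated mouse for 9, and the highest and lowest untreated mouse for 8 and 4.

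**Figure D2:**
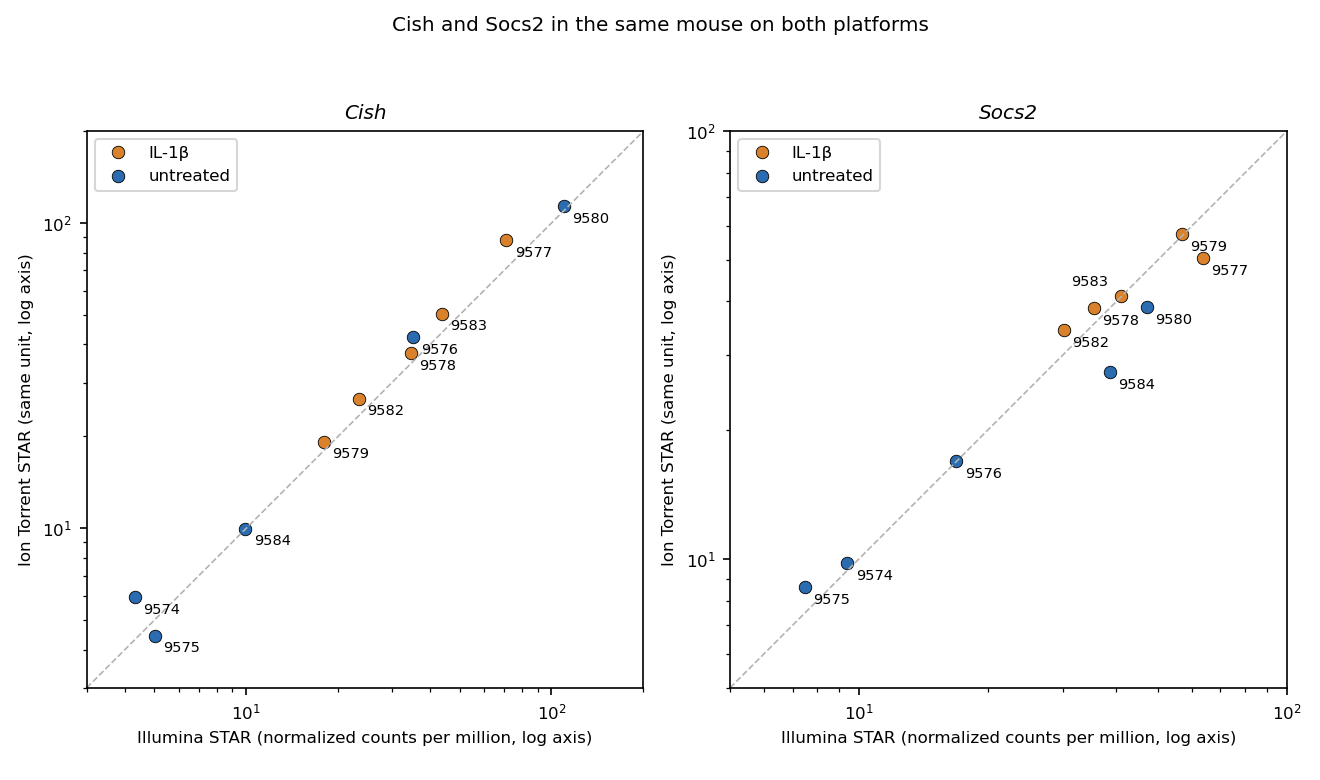
Normalized CPM of Cish (left) and Socs2 (right) in each mouse, Illumina STAR on the x axis and Ion Torrent STAR on the y axis, both logarithmic; the dashed line marks equal values and numbers are mice. Untreated mice (blue) span 4.33 to 110 for Cish on Illumina, wider than the treated mice (orange) at 18.0 to 71.1.

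Igf1 (ENSMUSG00000020053, chr10:87321010-87399792, plus strand), the hormone that the liver sends out in response to growth hormone, had the smallest of the 5 falls. The untreated mice had 499, 539, 659, 587 and 728 CPM. The treated mice had 373, 535, 540, 453 and 402 CPM. The groups overlapped after TMM scaling, with treated mice ILB_9578 and ILB_9579 above UNT_9574. In the unscaled counts they did not, at 3937 to 5442 in treated and 5990 to 7835 in untreated mice. Library totals were also lower in treated mice. The log2 fold change was -0.39 (SE 0.133, adjusted p = 0.0269), or 1.31-fold lower. The call held without TMM (-0.51, adjusted p = 0.00279) and in the rank-sum test of the unscaled counts (adjusted p = 0.0363). The call was lost in the Ion Torrent STAR table (-0.29, adjusted p = 0.0702) and without ILB_9577 (-0.32, adjusted p = 0.0731) or ILB_9583 (-0.34, adjusted p = 0.0703), or UNT_9576 (-0.35, adjusted p = 0.0607) or UNT_9584 (-0.31, adjusted p = 0.0647).

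Igfals (ENSMUSG00000046070, chr17:25014600-25018955, plus strand) encodes the acid-labile subunit, made in hepatocytes, which holds IGF-1 in its long-lived serum complex. It had the largest fall of the 10 genes. One of its promoters is shown, which holds 1 copy of the STAT element that the promoter of Cish holds. It is the 200 bases before a transcript start in RefSeq (GRCm38.p6, chr17:24878031-24878230, plus strand), with the match in capitals:
Igfals: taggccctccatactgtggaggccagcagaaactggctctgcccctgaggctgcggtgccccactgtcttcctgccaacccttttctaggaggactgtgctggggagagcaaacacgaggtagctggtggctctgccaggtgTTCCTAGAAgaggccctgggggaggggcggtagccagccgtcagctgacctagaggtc
Promoter windows were at hand for 9 of the 10 genes, and Cish, Igfals and Prlr were those with the element. Some genes had more than 1 window. Of the 17 windows of these 9 genes 4 held the element, and the share given with Cish is likewise one of windows. An Igfals window at another transcript start was among the 4, with TTCTCAGAA 236 bases before that start.

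The untreated mice had 84.6, 92.3, 135, 93.3 and 57.8 CPM of Igfals. The treated mice had 37.2, 19.5, 38.5, 29.9 and 39.6 CPM. No treated mouse reached the lowest untreated one, which was UNT_9584. The means were 32.9 ± 8.41 (SD, n = 5) with IL-1β and 92.5 ± 27.6 (SD, n = 5) without. The log2 fold change was -1.49 (SE 0.212, adjusted p = 4.04e-05), or 2.81-fold lower, and -1.62 (adjusted p = 1.5e-05) without UNT_9584. In the Ion Torrent STAR table UNT_9584 had 165 CPM, within the 108 to 177 CPM of its group, and the log2 fold change there was -1.65.

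Igfbp1 (ENSMUSG00000020429, chr11:7097785-7102549, plus strand) encodes a binding protein that takes up free IGF-1, and its liver mRNA is known to change quickly with feeding and stress. Its promoter is shown for the insulin response element, whose core CAAAACA is bound by FOXO proteins. The stretch is the 200 bases before the transcript start in RefSeq (GRCm38.p6, chr11:7197587-7197786, plus strand), with the core in capitals:
Igfbp1: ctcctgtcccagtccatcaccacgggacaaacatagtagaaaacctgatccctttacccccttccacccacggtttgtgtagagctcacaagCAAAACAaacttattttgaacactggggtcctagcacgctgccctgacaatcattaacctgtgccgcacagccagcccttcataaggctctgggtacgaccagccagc
The core, searched on both strands, occurs in 6.28% of the 32851 windows and, of the 9 genes with windows, also in a window of Prlr. No match of it overlapped a match of the STAT element.

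The untreated mice had 39.1, 11.5, 49.5, 13.2 and 19.7 CPM of Igfbp1. The treated mice had 37.5, 94.0, 337, 128 and 101 CPM. ILB_9577 lay within the untreated range, the other treated mice lay above it, and ILB_9579 was far above the rest. The means were 140 ± 115 (SD, n = 5) with IL-1β and 26.6 ± 16.9 (SD, n = 5) without. The log2 fold change was 2.39 (SE 0.508, 95% interval 1.31 to 3.47, adjusted p = 0.00129), or 5.24-fold higher, the largest change of the 10 genes. It was 1.76 (adjusted p = 0.00284) without ILB_9579 and 2.36 to 2.51 over the 6 tables. The rank-sum test did not call it (adjusted p = 0.081).

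Igfbp2 (ENSMUSG00000039323, chr1:72871077-72899048, plus strand) encodes another hepatic carrier of IGF-1. It had 237, 163, 223, 343 and 95.6 CPM in the untreated mice and 200, 99.3, 129, 115 and 331 CPM in the treated mice. The groups overlapped over nearly their whole range. The log2 fold change was -0.28 (SE 0.333, 95% interval -0.99 to 0.43, adjusted p = 0.535), and -0.47 (adjusted p = 0.251) without UNT_9584. That mouse had 310 CPM in the Ion Torrent STAR table, inside the 297 to 500 CPM of the untreated group there.

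**Figure D3:**
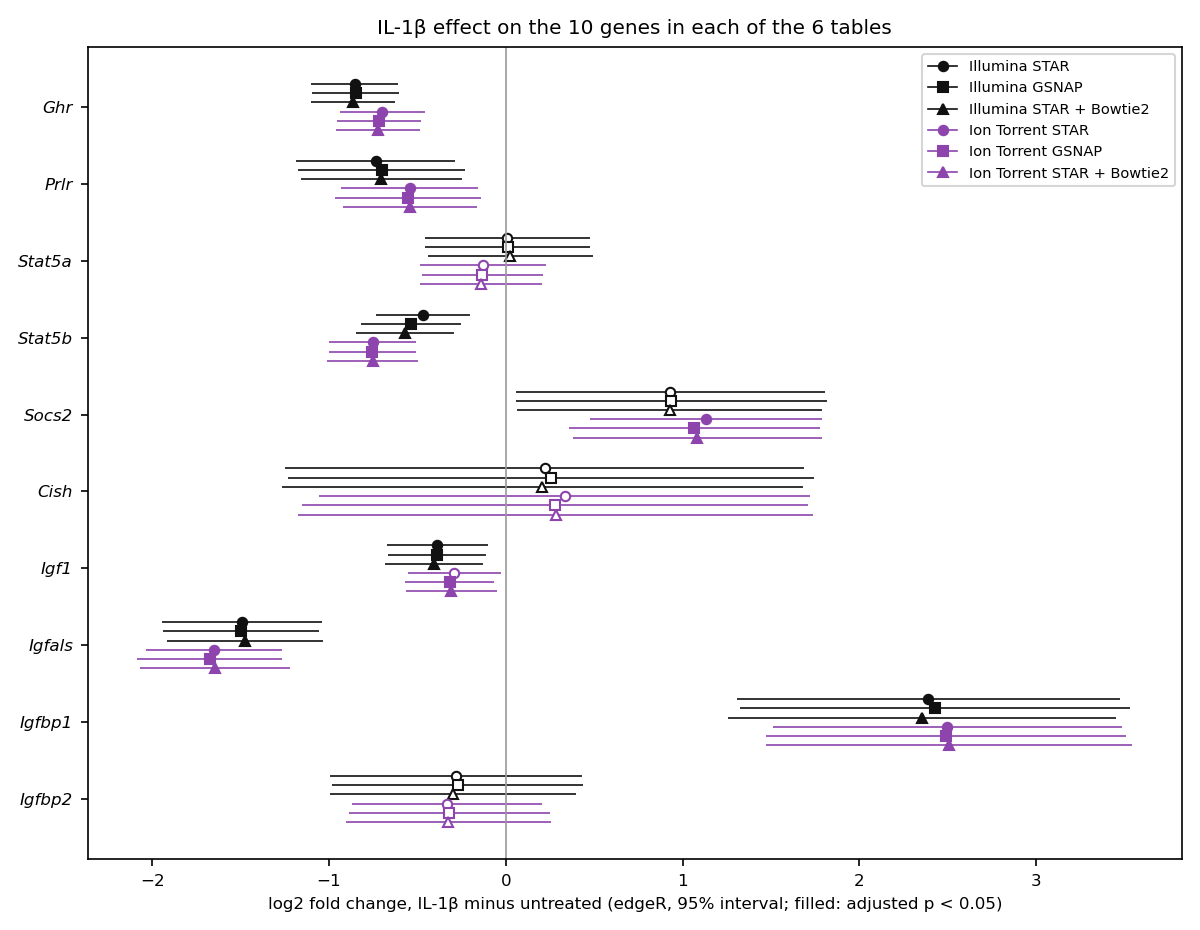
Log2 fold change of IL-1β minus untreated (x axis) with its 95% interval for each of the 10 genes in the 6 tables, Illumina in black and Ion Torrent in purple, with filled symbols for an adjusted p below 0.05. Igfbp1 lies at 2.36 to 2.51 and Igfals at -1.68 to -1.48 in every table, while the intervals of Cish reach from below -1 to above 1.5.

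The effects were compared between platforms in a model of all 20 libraries with the mouse as a block. The platform-by-treatment term passed for 0 of the 10 genes with each of the 3 aligners, and 0.00642% of all genes passed with STAR, 0.0642% with GSNAP and 0.0770% with STAR + Bowtie2. With STAR, 1 gene had an unadjusted p below 0.05, Stat5b, whose effect was lower on Ion Torrent by a log2 difference of -0.28 (adjusted p = 0.669 in edgeR). DESeq2 and limma-voom with the block called 0 of the 10 as well. The 95% interval of the term was -0.031 to 0.36 for Ghr, so a platform difference of that size was within what 5 mice a group leave unresolved.

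Levels were set in order between genes after division by the length of each gene's merged exons, in CPM per kilobase. That length joins the exons of all annotated transcripts, such as 6419 bases from 6 transcripts for Cish and 1525 from 1 for Igfbp1. The order thus also depends on the annotation, and which transcripts the liver used was not measured. In untreated mice Igfbp2 led with 115 ± 49.7 (SD, n = 5), followed by Ghr with 61.4 ± 6.53, Igf1 with 60.7 ± 9.29 and Igfals with 32.0 ± 9.53. Below them came Igfbp1 with 17.5 ± 11.1, Stat5b with 7.43 ± 1.16, Prlr with 6.50 ± 2.39, Cish with 5.11 ± 6.97, Socs2 with 2.51 ± 1.88 and Stat5a with 1.54 ± 0.117. Of the neighbours in this order, Igf1 and Igfals were the pair whose mean ± SD did not touch. With IL-1β Igfbp1 moved from the fifth place to the second, at 91.5 ± 75.5 CPM per kilobase beside 94.6 ± 51.7 for Igfbp2. Igf1 followed with 46.4 ± 7.65, Ghr with 34.0 ± 4.71 and Igfals with 11.4 ± 2.91 CPM per kilobase. The other genes stood between 1.54 and 5.95 CPM per kilobase in the treated mice, with Stat5a the lowest again. Here the mean ± SD of Igf1 did not touch that of Ghr, nor that of Ghr Igfals, nor that of Prlr Stat5a, while the other neighbours touched.

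Ratios of 2 genes within a library do not depend on how libraries are scaled, and 5 pairs were tested with two-sided exact permutation tests over all splits of the mice into 5 and 5, whose smallest p is 0.00794. The ratio of Igfbp1 to Igf1 was higher in every treated mouse than in any untreated one. Its log2 value was -3.32, -2.51, -0.68, -1.82 and -1.99 in the treated mice. It was -3.67, -5.55, -3.73, -5.47 and -5.20 in the untreated mice, so the groups did not overlap. The difference was 2.66 on the log2 scale (exact p = 0.00794, adjusted over the 5 ratios 0.0397), and the adjusted value was 0.0794 without ILB_9579, UNT_9575 or UNT_9580, with differences of 2.32, 2.46 and 2.48. The groups stay apart with any mouse left out. The test then has fewer splits and coarser steps, so the lost call cannot tell whether the result rests on those mice.

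The other ratios did not pass in the Illumina STAR table. That of Igfals to Igf1 differed by -1.09 (exact p = 0.0238, adjusted 0.0595), with UNT_9584 at -3.65 among the treated mice, and by -1.32 (adjusted exact p = 0.0397) without that mouse. In the Ion Torrent STAR table it differed by -1.36 (adjusted exact p = 0.0198). The ratio of Stat5a to Stat5b differed by 0.38 (exact p = 0.119, adjusted 0.198) and in the Ion Torrent STAR table by 0.59 (adjusted exact p = 0.0265). Prlr to Ghr differed by 0.19 (exact p = 0.476, adjusted 0.595) and Cish to Socs2 by -0.087 (exact p = 0.905, adjusted 0.905). Both receptors thus fell, and a difference between their falls was not detected with 5 mice a group.

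**Figure D4:**
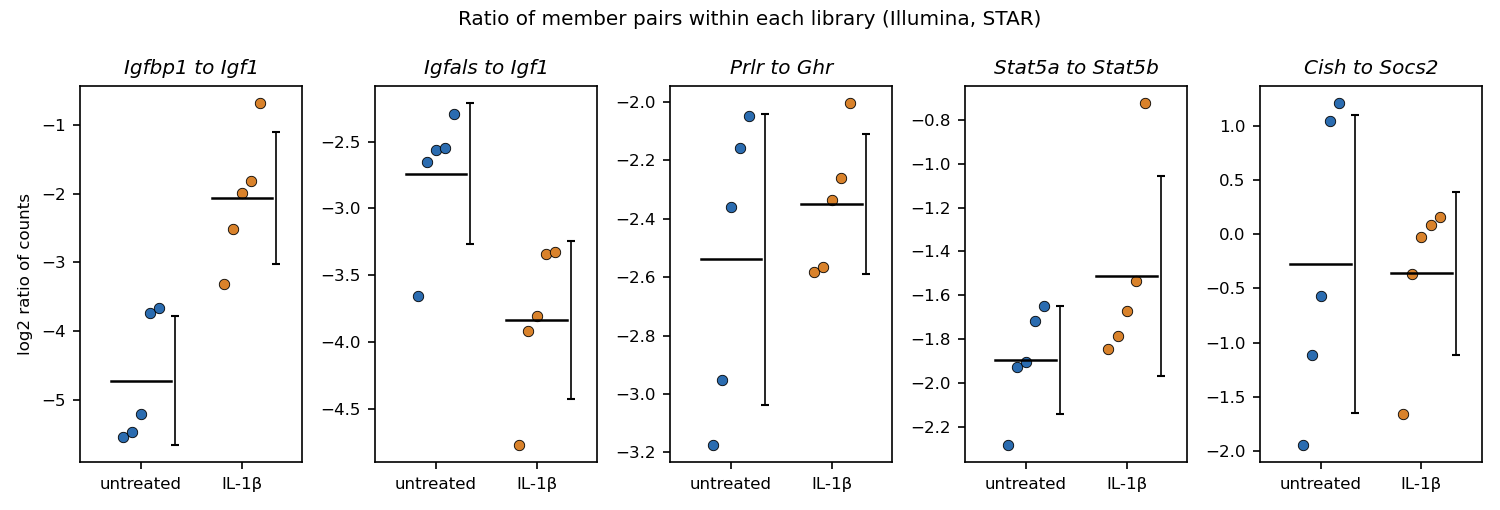
Log2 ratio of the counts of 2 genes in the same library (y axis) for 5 pairs, with 1 point per mouse of the Illumina STAR table, untreated in blue and IL-1β in orange; lines are means and bars are 1 SD. The groups are apart for Igfbp1 to Igf1, at -5.55 to -3.67 untreated and -3.32 to -0.68 treated, and overlap for the other pairs.

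Beyond the 10 genes, 28 genes of the signalling machinery of the growth hormone and prolactin receptors were tested. Of these, 10 rose, 5 fell and 13 did not pass, beside 45.7% of all genes called, 22.7% as higher and 22.9% as lower. Their median log2 fold change was 0.27 against 0 over all genes. Ptpn1, a phosphatase that acts on JAK2, rose from 24.8 to 153 CPM (log2 fold change 2.62, SE 0.136). Socs3, a feedback inhibitor that inflammatory cytokines induce, rose from 12.0 to 59.2 CPM (2.30, SE 0.384), and Stat3 rose from 156 to 545 CPM (1.81, SE 0.134). Irs1, an adaptor of insulin and IGF-1 receptors, fell from 25.8 to 4.03 CPM (-2.67, SE 0.214), and the adaptor Gab1 fell from 17.9 to 6.53 CPM (-1.45, SE 0.135). Bcl6, a repressor that competes with STAT5 for its sites, fell from 57.5 to 14.5 CPM (-1.99, SE 0.446), although UNT_9576 had 7.04 CPM, below all treated mice. Jak2 itself had 23.4 CPM with IL-1β and 18.9 CPM without (0.31, adjusted p = 0.0824), and it passed without UNT_9584 (0.42, adjusted p = 0.0109). All 6 genes named as changed were called in the same direction in all 6 tables.

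Of 22 further genes of the IGF system 15 were tested, of which 1 rose, 2 fell and 12 did not pass, with a median log2 fold change of -0.0053, beside 45.7% of all genes called. Igfbp5, a binding protein whose gene lies 5.46 kb from Igfbp2, fell from 15.5 to 2.54 CPM (-2.61, SE 0.437, adjusted p = 0.000177). Igfbp4, an abundant hepatic binding protein, fell from 1117 to 847 CPM (-0.40, SE 0.108, adjusted p = 0.00693). Igf2bp2, which encodes an RNA-binding protein, rose from 1.53 to 3.33 CPM (1.12, SE 0.267, adjusted p = 0.00301). Igfbp3, the partner of the acid-labile subunit, whose gene lies 3.54 kb from Igfbp1, had 14.0 CPM with IL-1β and 18.2 without (-0.37, adjusted p = 0.14), and it passed without ILB_9577 (-0.60, adjusted p = 0.00667). The receptor gene Igf1r had 0.97 and 0.68 CPM (adjusted p = 0.261) and Igf2 had 0.20 and 0.35 CPM (adjusted p = 0.216), near the lower end of what these libraries counted.

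Male mice release growth hormone in pulses, and through STAT5 this sets a male pattern of liver genes, with a set of genes higher in males and another higher in females. Of 15 male-biased genes tested 0 rose, 11 fell and 4 did not pass, with a median log2 fold change of -0.49, while 22.7% of all genes were called as higher and 22.9% as lower. In the Ion Torrent STAR table, where 42.1% of all genes were called, 8 of the 15 fell and 0 rose. The largest fall was that of Hsd3b5, a steroid-metabolizing enzyme, which went from 174 to 260 CPM in untreated mice to 7.79 to 37.8 CPM in treated mice, 11.7-fold lower (-3.55, SE 0.311, adjusted p = 3.97e-07). Selenbp2 fell from 1035 to 352 CPM (-1.56, SE 0.356, adjusted p = 0.00222), and Bcl6, given above, belongs to this list too. Of 16 female-biased genes 11 were tested, of which 0 rose, 4 fell and 7 did not pass, with a median of -0.52, beside the same 22.9% of all genes called as lower. Several of the 11 averaged under 5 counts in both groups. Another 2, Cux2 and Cyp2a4, averaged at least 5 counts in untreated but under 5 in treated mice. Their counts were too few to pass the filter in this table. Both are among the 4 that fell, and with the filter set on this table alone 2 genes were called. The 7 that did not pass include 2 with no count in any library of this table. Cux2 had 44 counts over the untreated mice and 0 over the treated ones, at least 13.0-fold lower with a floor of 3 counts over the group. Of those 44 counts UNT_9576 held 30, and without that mouse the bound was 5.18-fold. Acot3 fell from 25.9 to 6.47 CPM (adjusted p = 0.0214), but the call was lost without UNT_9584 (-1.05, adjusted p = 0.123), which had 76.1 CPM, and without ILB_9583 (-1.80, adjusted p = 0.0521). Cyp2a4 fell from 0.82 to 0.16 CPM (-2.30, adjusted p = 0.0226), and its call was lost without UNT_9575 (-1.62, adjusted p = 0.0829) or UNT_9584 (-2.13, adjusted p = 0.0517) and it was -2.91 (adjusted p = 0.0165) without ILB_9577. Cyp2a4, Selenbp2, Hsd3b5 and Acot3 have close relatives in the genome, and the sequence they share with them was not measured here. The female-biased count was 2 without UNT_9584.

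**Figure D5:**
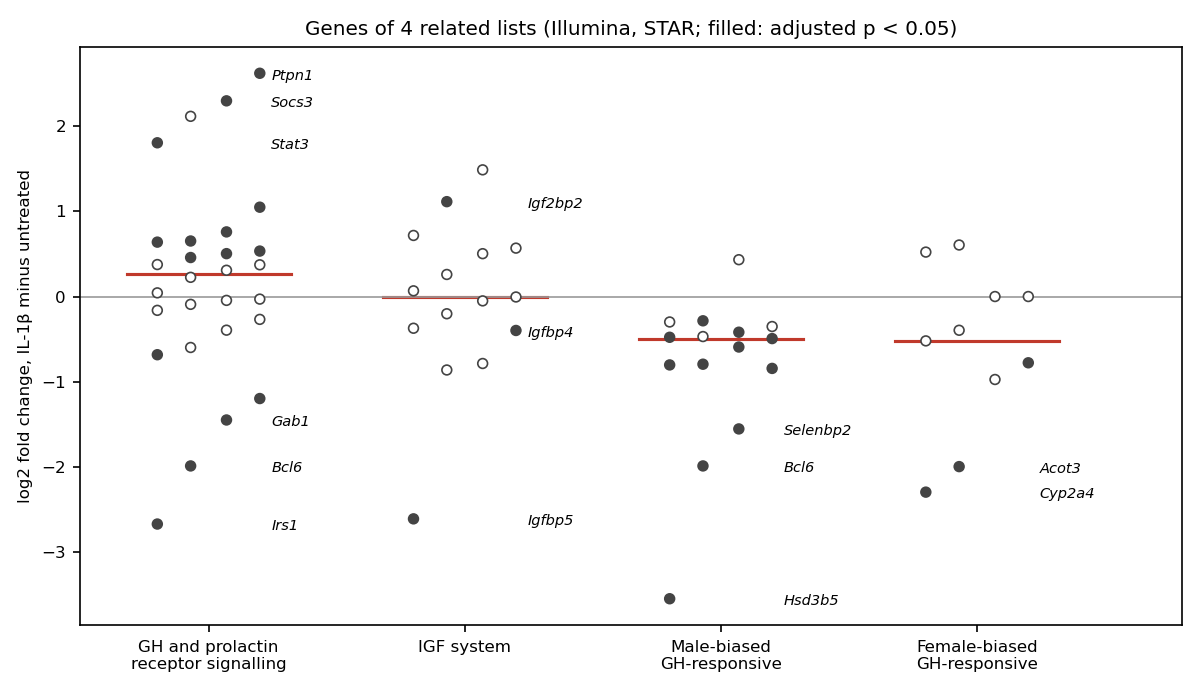
Log2 fold change of IL-1β minus untreated (y axis) for the tested genes of 4 lists in the Illumina STAR table, with 1 point per gene, filled where the adjusted p was below 0.05, and a red line at the list's median. Cux2, at 0 in all treated mice, is left out as its fold change is only bounded; the male-biased genes show 11 filled points below 0 and none above.

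Markers of liver cell types were set beside the 45.7% of all genes called. Of 7 hepatocyte markers 3 fell and 4 did not pass, and their summed level was 74520 to 84800 CPM in treated and 97660 to 117400 CPM in untreated mice. Most of that sum was Alb, with a mean of 54580 CPM in treated and 78880 CPM in untreated mice. Cps1 and Cyp2e1 fell too. Ttr, Apoa1 and Pck1 were lower without passing, and Apob was higher without passing, at 7510 against 5828 CPM. Of 8 neutrophil markers 6 passed the filter, and these summed to 51.9 to 114 CPM in treated and 2.13 to 6.24 CPM in untreated mice. The number of them called is not given, since 3 of the 6 averaged under 5 counts in the untreated mice, too few to pass the filter in this table on those mice alone. Of the tested markers, 1 of 7 for macrophages and Kupffer cells rose and 3 fell. For endothelial cells 1 of 6 rose and 3 fell, 2 of 5 stellate markers fell, and 2 of 4 cholangiocyte markers rose. The 4 tested lymphocyte markers summed to 0.592 to 1.49 CPM in treated and 0.978 to 2.66 CPM in untreated mice. How many of these were called is not given, since 2 averaged at least 5 counts in untreated but under 5 in treated mice. No listed marker was at 0 over the Illumina STAR libraries. The part of these differences in the values of the 10 genes was not tested.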

How the data were processed

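Liver RNA of 10 mice (5 treated, 5 untreated) gave 20 libraries, grouped by the labels. The authors aligned reads to mm9 with GSNAP, STAR 2.5.1b or STAR followed by Bowtie2 2.2.9 (versions from the submitters' processing notes), removed rRNA and mitochondrial reads, and used PORT to re-sample libraries to a common number of gene-mapping reads, table by table. The deposited values are whole-number counts per gene, taken as read pairs for Illumina and reads for Ion Torrent, which the tables do not state. Re-sampling equalizes depth within a table, so treatments were compared within tables only.

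Genes with at least 5 counts in 5 of the 10 libraries of any table (15578) were tested with edgeR 4.0.16 (quasi-likelihood, TMM, Benjamini-Hochberg). The study used a rank-sum test, run as an alternative on the deposited counts without further scaling. Other alternatives were limma-voom 3.58.1, DESeq2 1.42.0, no TMM, other filters, other tables, pseudocounts 0 and 1 beside 0.5 in ratios, no mouse block and leaving out each mouse (for the named list genes added after seeing the data). The platform-by-treatment fit kept the mouse as a block, since a mouse number marks the same RNA. The pairing was checked by correlating deviations from group means (0.246 to 0.707). R 4.3.3, Python 3.11.15, numpy 2.4.6, pandas 2.3.3 and matplotlib 3.10.9 were used, and the fits were tested on simulated counts.

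The 10 genes and the lists were chosen with earlier results of these data known. All 10 were named. Of each related list, the up to 3 called genes with the largest rise and the largest fall were named, with Jak2, Igf2, Igf1r, Igfbp3 and Igfbp4. Gene positions and exon lengths are from the Ensembl models on NCBIM37, and promoters from RefSeq on GRCm38.p6. Floors and intervals cover counting error or spread between these mice only.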

Additional observations from a re-analysis of the deposited data

Results flagged for a closer look

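In groups of 5 mice, a value was singled out where its gap to the nearest mouse exceeded 0.71 of the group's range, which chance gives in about 1 of 20 groups. Of 65 groups tested 8 held such a mouse, 0 of 20 for the levels of the 10 genes, 3 of 10 for the ratios and 5 of 35 for the named list genes. ILB_9579 was highest for the log2 ratio of Stat5a to Stat5b at -0.72 against -1.54 for the next mouse (gap 0.724 of the range). It was lowest for the log2 ratio of Cish to Socs2 at -1.66 against -0.36 (0.712), highest for Bcl6 at 25.3 against 12.8 CPM (0.852) and lowest for Irs1 at 2.78 against 4.13 CPM (0.727). UNT_9584 was lowest for the log2 ratio of Igfals to Igf1 at -3.65 against -2.65 (0.734) and highest for Acot3 at 76.1 against 22.9 CPM (0.75). UNT_9576 was highest for Cux2 at 2.58 against 0.51 CPM (0.857), and ILB_9582 for Igf1r at 1.69 against 0.91 CPM (0.763).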

How the results depend on the processing

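The calls of Ghr, Stat5b and Igfals held under every other test, filter, scaling and table and with each mouse left out, and those of Prlr and Igfbp1 under all of these but the rank-sum tests (adjusted p 0.081, or 0.0722 in the exact form added after seeing the data). Among the 10 genes 5 to 8 were called when 1 mouse was left out. With all mice, 2 were called with an absolute log2 fold change above 1, and 2 by that rule in all 6 tables. Socs2 also met that rule in the 3 Ion Torrent tables and without UNT_9580 or UNT_9584, and Cish without UNT_9580. In the Ion Torrent STAR table without UNT_9584, also added later, 5 were called. Stat5a turned negative without TMM (-0.12), with limma-voom (-0.082) and in the unscaled counts of the rank-sum alternative (-0.17). It was negative too in the Ion Torrent GSNAP (-0.13), STAR (-0.13) and STAR + Bowtie2 (-0.14) tables. With 1 mouse left out, Stat5a ranged from -0.29 to 0.12 and Cish from -0.13 to 1.49. The called genes of the IGF system were 5 without TMM, with DESeq2, limma-voom and in the Illumina STAR + Bowtie2 and Ion Torrent GSNAP tables, and 3 to 6 over mice left out (6 without ILB_9577). The male-biased falls were 11 in the Illumina GSNAP and 12 in the Illumina STAR + Bowtie2 table. They were 9, 8 and 8 in the Ion Torrent GSNAP, STAR and STAR + Bowtie2 tables. With limma-voom 9 male-biased genes were called, with the rank-sum test 8, and over mice left out 8 to 11. The female-biased calls were 2 with limma-voom, the rank-sum test or a filter on the same table, 8 in the Illumina STAR + Bowtie2 and Ion Torrent GSNAP tables, 7 in Ion Torrent STAR + Bowtie2 and 2 to 4 over mice left out. Ratios called were 3 in each Ion Torrent table. Over mice left out, where the exact test has fewer splits, 0 to 2 were called, and Cish to Socs2 then ranged from -0.51 to 0.28. The platform term of Cish was -0.059 with GSNAP, and over mice left out that of Stat5a ranged from -0.14 to 0.037, of Igfals from -0.27 to 0.043 and of Igfbp2 from -0.21 to 0.074. Without the replicate block 0 of the 10 platform terms passed, and the block changed no call. The cause of these shifts was not tested. Without TMM the median log2 fold change of all genes was -0.099. With 5 mice a group, Cish and Igfbp2 could not be told from no change, and their intervals also hold changes of over 1.5-fold.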

Other observations

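Among treated mice, ILB_9579 was the highest for 5 of the 10 genes (Ghr, Igf1, Igfbp1, Prlr and Stat5a), and ILB_9578 was the lowest for 5 (Ghr, Igfals, Igfbp2, Stat5a and Stat5b) and ILB_9577 for 3 (Igf1, Igfbp1 and Prlr). Among untreated mice, UNT_9580 was the highest for 4 (Cish, Igfbp2, Socs2 and Stat5b). Mouse UNT_9584 was the highest for 3 (Ghr, Igf1 and Prlr) and the lowest for 3 (Igfals, Igfbp2 and Stat5b). The lowest values of the other untreated mice were spread, with 2 genes each for UNT_9574, UNT_9575 and UNT_9576 and 1 for UNT_9580. These are counts in the Illumina STAR table with no test.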
